A study of Mus musculus with 63 samples.

Results

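Oxidative phosphorylation (OXPHOS) subunit genes were followed in single cells of mouse primary visual cortex (V1) that had been sorted by their response to light. The genes were chosen by symbol, namely the mitochondrial genes (mt-) and the Nduf, Sdh, Uqcr, Cox4 to Cox8 and Atp5 genes of the nucleus. This gave 97 of the 20183 listed genes, 13 of them encoded by mitochondrial DNA and 84 by nuclear DNA. The nuclear genes comprised 37 of complex I, 4 of complex II, 8 of complex III, 18 of complex IV and 17 of complex V, assigned by symbol. The mitochondrial genes comprised 7 of complex I, 1 of complex III, 3 of complex IV and 2 of complex V. The nuclear genes lay on 18 autosomes and, for 3 of them, on chromosome X. The symbols also take in Atp5s and Atp5sl, which are not structural subunits, and Cox7a2l, a factor that joins complexes III and IV. Ndufa4 was counted with complex I by its symbol, although its protein is now placed in complex IV.

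All cells came from the brain of wild-type C57BL/6 mice aged 70 days. The mice were male and lightly anaesthetised. Neurons of layer 2/3 were loaded with a calcium dye. A cell was called light-sensitive (LS) when it responded to nearly all of the repeated gratings and non-light-sensitive (NS) when it responded to almost none, and its soma was then sucked into a pipette in the living animal. Smart-seq2, which copies full-length mRNA of a single cell and amplifies it by PCR, gave 46 LS and 17 NS libraries. No treatment or genetic change separates the groups. Because the mouse of origin is not given for any cell, each group counts as 1 sample here. Differences between LS and NS therefore carry no test, and each SD below is the spread between cells.

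Complexes I to IV, in the inner mitochondrial membrane, pass electrons from NADH and succinate to oxygen, and complexes I, III and IV pump protons as they do so. Complex V, the ATP synthase, lets the protons flow back and makes ATP. Complexes I, III, IV and V are built from subunits of both genomes, complex II from nuclear subunits only, and neurons depend on this machinery for the cost of ion pumping and synaptic transmission.

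The values were FPKM, that is, fragments per kilobase of exon, scaled to sequencing depth, and whole reads were recovered from their steps. After quality and cell-type filters 47 cells remained, 35 LS and 12 NS. An LS cell had between 366363 and 2509886 reads on the listed genes and an NS cell between 148253 and 883592, so the NS libraries were shallower. The neuron markers Snap25, Syt1, Rbfox3, Stmn2 and Syp showed at least 3 of the 5 in 32 of 35 LS cells and in 3 of 12 NS cells (NS_12, NS_13 and NS_16). Their summed level had a median of 612 FPKM (0 to 1234) in LS cells and 2.27 FPKM (0 to 1108) in NS cells. The excitatory markers Slc17a7 and Neurod2 exceeded the inhibitory markers Gad1 and Gad2 in 30 LS and 2 NS cells, and the reverse held in 4 LS and 6 NS cells. All 6 astrocyte markers were found, and their sum had a median of 72.2 FPKM over LS cells and 143 FPKM over NS cells. The median sums in LS and NS cells were 16.02 and 3.28 FPKM for oligodendrocyte, 263 and 554 FPKM for microglial and 0 in both for endothelial markers.

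Sensory receptor genes, which cortical neurons are not known to transcribe, served as an index of reads from genomic DNA. They averaged 0.489 FPKM per gene in LS and 6.53 FPKM per gene in NS cells. Relative to an even spread of reads over exons, their level reached at least 10% in 4 of 35 LS and 9 of 12 NS cells. In NS_12, 90.4% of the read numbers between 1 and 49 were even, against at most 48.4% in any other cell kept, and NS results are therefore also given without it. Whether marker content, receptor-gene level or depth had a part in the differences below was not tested.

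The 13 mitochondrial genes together summed to 22067 ± 16015 FPKM per LS cell (SD, n = 35), with a lowest value of 5807, a median of 14466 and a highest of 78576 in LS_43. In NS cells their sum was 14797 ± 16551 FPKM (n = 12), from 1949 in NS_6 over a median of 8418 to 60674 in NS_14. The groups overlapped widely, and only 4 NS cells lay below the lowest LS cell. The log2 ratio of the LS to the NS mean was 0.58, against a spread between cells of 1.07. For sums, this spread is the SD within groups of log2(FPKM + 1), which is not the scale of a ratio of means. The ratio was 1.05 without NS_14, 0.28 with LS_1 and NS_1 kept, and -0.02 with the reads of each group pooled. It was -0.33 when the 31 LS and 3 NS cells below a receptor-gene level of 10% were used. Those 3 NS cells were NS_14 (60674 FPKM), NS_13 (11289 FPKM) and NS_16 (8272 FPKM), so that value leaned on NS_14. The direction of the mitochondrial difference thus rested on the choice of cells and of scale.

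The 84 nuclear genes summed to 8724 ± 2913 FPKM per LS cell (n = 35), from 4864 over a median of 8106 to 16407. In NS cells the nuclear sum was 5429 ± 3459 FPKM (n = 12), from 1116 in NS_7 over a median of 4781 to 13630 in NS_12. Of the NS libraries, 6 of 12 lay below every LS cell, and the other NS cells lay among them. The log2 ratio of means was 0.68, against a spread between cells of 0.62. Without NS_12 the NS mean was 4684 ± 2413 FPKM (n = 11) and the log2 ratio 0.90, whereas in the 32 LS and 3 NS cells with at least 3 neuron markers it was 0.14. Those 3 NS cells include NS_12 (13630 FPKM), beside NS_13 (6246 FPKM) and NS_16 (3095 FPKM).

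Nuclear sums were more even among LS cells than mitochondrial ones. The highest LS cell held 3.37 times the nuclear sum of the lowest but 13.5 times the mitochondrial sum, and the SD was 0.334 of the mean for the nuclear and 0.726 of the mean for the mitochondrial sum. The NS cells spread over 12.2-fold and 31.1-fold ranges. Within a cell, where the total cancels, the nuclear sum was 0.482 times the mitochondrial sum in LS cells (median, 0.104 to 1.71) and 0.518 times in NS cells (median, 0.154 to 1.15). The log2 ratio of these medians was -0.10, against a spread between cells of 0.95. The plot of sums by genome of origin shows the overlap for each measure.

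**Figure D1:**
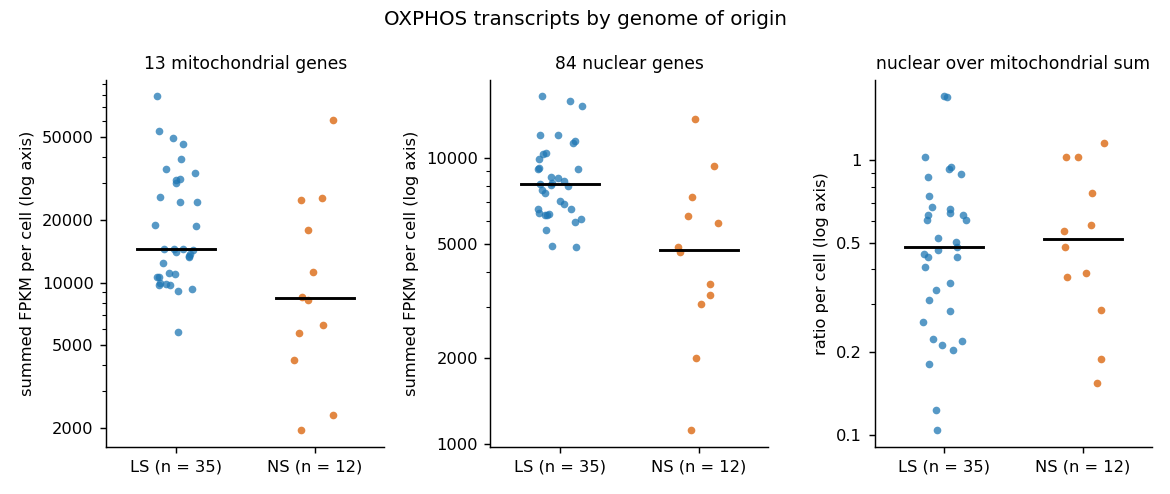
Summed FPKM per cell of the 13 mitochondrial genes (left), of the 84 nuclear genes (middle) and their ratio (right), all on log axes; a point is a cell and a line is the group's median. The median mitochondrial sums were 14466 (LS) and 8418 (NS), the nuclear ones 8106 and 4781, and the ratios 0.482 and 0.518, with overlapping groups in each panel.

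The mitochondrial genes fell into 2 sets of very different level. Cytochrome b (mt-Cytb), the catalytic core of complex III, was highest in LS cells, with 6262 ± 5078 FPKM in LS cells (1540 to 23849, median 4432) and 3880 ± 4443 FPKM in NS cells (389 to 16682, median 2665). The catalytic subunit of complex IV, mt-Co1, was next in LS and highest in NS cells, with 5296 ± 3494 FPKM in LS (1254 to 16443, median 3834) and 4187 ± 4776 FPKM in NS cells (median 2501). The level of mt-Nd1, in the membrane arm of complex I near the quinone site, was 4956 ± 3408 FPKM in LS against 2864 ± 3660 in NS cells. The neighbours in this order, mt-Cytb, mt-Co1 and mt-Nd1, differed by less than their spread between cells. The other proton-pumping subunits of complex I came next in LS cells, mt-Nd5 at 2139 ± 1782, mt-Nd4 at 1460 ± 1263 and mt-Nd2 at 1009 ± 952 FPKM. Lowest of this set was mt-Nd6 (879 ± 837 FPKM), the only one of the 13 encoded on the opposite strand. Each of these 7 genes had a value in every kept cell of both groups, with the exception of mt-Nd2, which was at 0 in 1 NS cell. They held 99.7% of the mitochondrial sum in the mean LS cell and 99.5% in the mean NS cell.

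The other 6 genes were close to 0 although their products are no less part of the complexes. In LS cells mt-Atp6, which forms the proton path of complex V, had 23.4 ± 31.6 FPKM (1.10 to 149.8, median 12.1) and mt-Co3, a core subunit of complex IV, had 20.97 ± 27.7 FPKM (0 to 127, median 7.51). The short complex V subunit mt-Atp8 had 8.11 ± 11.8 FPKM, and mt-Co2, which takes electrons from cytochrome c, had 7.84 ± 8.63 FPKM. The small complex I subunits mt-Nd4l and mt-Nd3 had 5.15 ± 6.97 and 1.04 ± 1.80 FPKM, and mt-Nd3 had a value in 10 LS and 2 NS cells only. The least abundant of the first set, mt-Nd6, was 37.6 times as high in LS cells as mt-Atp6, the most abundant of the second. The same 6 genes were low in NS cells, from 1.32 ± 3.10 FPKM for mt-Nd3 to 17.2 ± 19.3 FPKM for mt-Co3.

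The second set is a run of neighbours on the mitochondrial genome, from mt-Co2 at base 7013 to the end of mt-Nd4l at base 10173 of chromosome M (GRCm38). Windows of 100 bases were taken from each transcript of the GENCODE annotation and searched in the transcripts of all other genes. The shared fraction was 99.5% for mt-Co2, 99.5% for mt-Atp6, 99.9% for mt-Co3, 97.6% for mt-Nd3 and 98.5% for mt-Nd4l. It was 60.8% for mt-Nd4, 30.8% for mt-Co1, 3.2% for mt-Nd2, and 0% for mt-Nd1, mt-Nd5, mt-Nd6 and mt-Cytb. The main partners of those 5 genes and of mt-Nd4 were unprocessed pseudogenes in the stretch of 4663 bases of chromosome 1 from 24611535 to 24616197, where 7 such copies, a partial one of mt-Co1 included, stand in the order of the mitochondrial genes. A copy on chromosome 2, Gm13341, also held a smaller part of the mt-Co2 windows. None of these copies is listed in the deposited table. For mt-Atp8 the share was 0%, and no copy of it is annotated, although 233 bases of the stretch between the copies of mt-Atp6 and mt-Co2 carry no annotated gene. The part of these copies in the low values was not tested.

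The pair of sequences shown first gives the start of mt-Nd3 with its copy Gm28438, which matched in 344 of 345 aligned bases. Below it stands a stretch of mt-Co1 with Gm13340, a more diverged copy on chromosome 2, which matched in 1508 of 1545 bases and shared few windows. The first is shown as a copy nearly free of differences and the second as one whose differences interrupt the shared windows. Capitals mark the bases that differ, all sequences read in the direction of the gene, and both stretches are 60 bases long.
mt-Nd3 (chrM:9459-9518, plus strand): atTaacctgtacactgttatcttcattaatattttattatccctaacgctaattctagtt
Gm28438 (chr1:24613060-24613119, minus strand): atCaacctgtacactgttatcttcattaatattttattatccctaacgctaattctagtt
mt-Co1 (chrM:6143-6202, plus strand): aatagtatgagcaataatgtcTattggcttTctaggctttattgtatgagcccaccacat
Gm13340 (chr2:22588773-22588832, minus strand): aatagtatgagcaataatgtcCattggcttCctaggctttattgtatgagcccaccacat

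**Figure D2:**
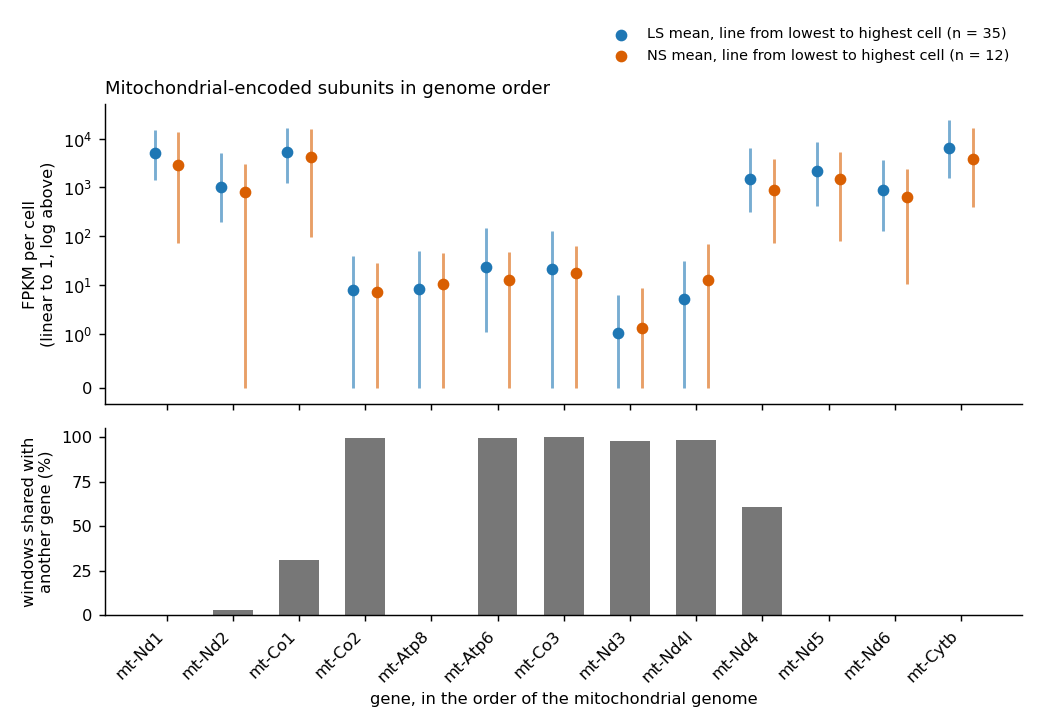
Top, mean FPKM of each mitochondrial gene over LS and NS cells (points; lines run from the lowest to the highest cell; axis linear to 1 and log above); bottom, percent of its 100-base windows that also occur in another annotated gene. The 5 genes with at least 97.6% of windows shared and mt-Atp8 averaged at most 23.4 FPKM in LS cells, the other 7 at least 879 FPKM.

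Some mitochondrial genes also overlap, mt-Atp8 with mt-Atp6 by 43 bases, mt-Nd4l with mt-Nd4 by 7 bases and, on opposite strands, mt-Nd5 with mt-Nd6 by 14 bases, and strand was not stated for the counting. Within the mitochondrial sum the shares were much alike between groups. In the median cell mt-Cytb took 27.9% of it in LS and 25.5% in NS, mt-Co1 25.3% and 23.5%, and mt-Nd1 22.7% and 19.7%. These shares ran from 15.2% to 37.9% for mt-Cytb among LS cells and from 15.3% to 47.9% among NS cells. Of the 12 mitochondrial genes whose group means averaged at least 5 FPKM, 0 had an LS mean at least 2-fold the NS mean, against 29.1% of all 9599 genes under that filter. The reverse held for 1, mt-Nd4l (12.8 FPKM in NS and 5.15 FPKM in LS cells), against 39.2% of all genes. That value rested on 25 NS reads, and its log2 ratio of -1.31 was -0.58 without NS_13.

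By complex, the nuclear sums were higher in the LS mean throughout. Complex I held 3186 ± 1197 FPKM per LS and 1833 ± 1059 FPKM per NS cell, a log2 ratio of 0.80 against a spread between cells of 0.67. Complex IV held 2689 ± 999 and 1742 ± 1391 FPKM (log2 ratio 0.63), and complex V 1792 ± 464 and 1142 ± 876 FPKM (0.65). Complex III held 817 ± 355 and 546 ± 359 FPKM (0.58), and complex II 240 ± 264 and 167 ± 265 FPKM (0.53). Except for complex I, each of these ratios of means was smaller than the spread between cells, which is on the log2(FPKM + 1) scale. On means of log2(FPKM + 1) the complex II difference was larger than its spread of 2.25. The ratios of means therefore do not place these differences inside the spread. In the 3 NS cells with at least 3 neuron markers the difference for complex IV had the other sign (-0.14), as did that for complex II (-0.26). Most of both NS sums came from NS_12, the library with mostly even reads. For complex IV it held 5288 FPKM, against 1929 in NS_13 and 1326 in NS_16. For complex II these values were 667, 44.9 and 10.1 FPKM.

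The division of the nuclear sum among complexes was steady in LS cells and looser in NS cells. Complex I took 36.4 ± 4.12% of it in LS and 34.3 ± 8.07% in NS cells, complex IV 30.6 ± 3.87% and 30.6 ± 8.03%, and complex V 21.1 ± 3.05% and 20.7 ± 12.4%. Complex III took 9.27 ± 2.24% and 11.4 ± 7.89%, and complex II 2.61 ± 1.81% and 2.90 ± 5.74%. Mitochondrial genes made up a median of 70.8% of the complex I sum over LS cells and of 75.2% over NS cells. For complex IV these medians were 62.7% and 59.5%, for complex III 86.5% and 85.4%, and for complex V, where both mitochondrial genes are in the low set, 0.764% and 0.758%. That set also holds mt-Co2 and mt-Co3 of complex IV and mt-Nd3 and mt-Nd4l of complex I. In LS cells mt-Co1 alone averaged 5296 FPKM of a mitochondrial complex IV sum of 5325 FPKM.

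**Figure D3:**
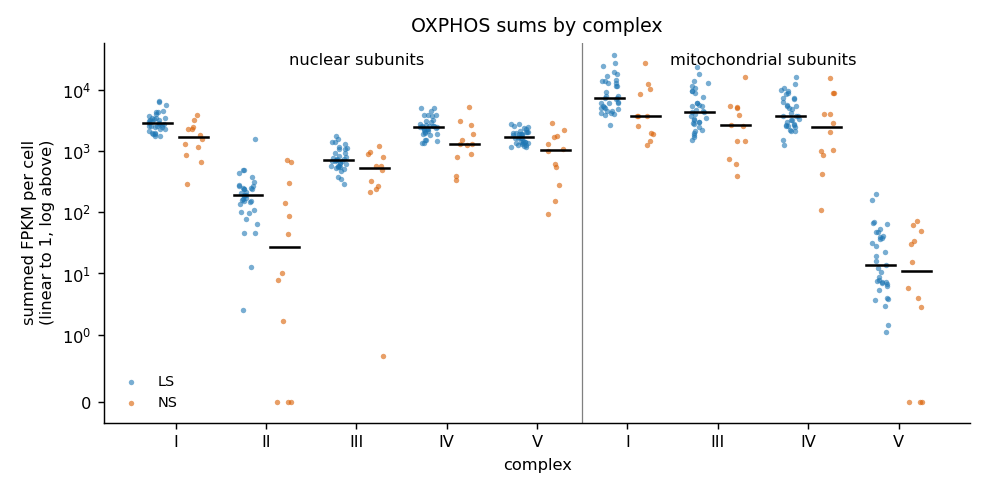
Summed FPKM per cell of the nuclear (left) and mitochondrial (right) subunits of each complex in LS and NS cells (axis linear to 1 and log above; lines are medians). Medians of the nuclear subunits of complex I were 2868 (LS) and 1739 FPKM (NS), and those of complex II 194 and 27.5 FPKM.

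In complex I the most abundant nuclear member of LS cells was Ndufa4, with 322 ± 158 FPKM (23.8 to 685, median 291, a value in 35 of 35 cells), against 123 ± 238 FPKM in NS cells (0 to 846, median 36.2, a value in 7 of 12). A single library, NS_11, held 57.5% of its NS sum. Ndufb9, an accessory subunit of the membrane arm, had 281 ± 187 FPKM in LS against 193 ± 307 in NS cells. Ndufa2 and Ndufa6, accessory subunits of the matrix arm, had LS means of 244 ± 316 and 167 ± 122 FPKM and NS means of 190 ± 293 and 93.8 ± 151 FPKM. For these 4 genes the groups overlapped, and the NS medians were 36.2 FPKM or lower except for Ndufb9 (55.5 FPKM).

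The largest ratios of complex I were those of Ndufa9 and Ndufs7. Ndufa9, an accessory subunit beside the quinone site, averaged 56.1 ± 76.3 FPKM over LS cells (0 to 377, median 33.8, a value in 27 of 35), while the NS cells held 1 read, in NS_9. Over pooled reads this was a ratio of 542, with an exact 95% counting interval from 97.1 to 21395, which describes these libraries only. That interval takes each read as independent, which PCR copies are not, and leaves out the spread between cells. With all 63 cells the log2 ratio of its means was 0.23, against 9.24 in the cells kept. Ndufs7, which carries the last iron-sulfur cluster before quinone, averaged 96.1 ± 70.9 FPKM in LS (0 to 284, median 92.1) and 4.35 ± 14.2 FPKM in NS cells, which gave a log2 ratio of 4.46. It had a value in 32 LS and 3 NS cells, and NS_8 held 94.7% of the NS sum. Its log2 ratio was 8.58 without NS_8 and 2.86 with all 63 cells. Ndufb8, a membrane-arm subunit, had the smallest ratio among nuclear genes found in 50% or more of the group where they were higher (-0.65), with 26.6 ± 25.7 FPKM in LS (median 17.5) and 41.8 ± 71.9 FPKM in NS cells (median 6.68). Its medians thus stood in the other order, and without its highest cell, NS_11, the ratio was 0.18.

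Complex II, which also serves the citrate cycle, varied most between cells. The flavoprotein Sdha had 40.6 ± 45.5 FPKM in LS (median 25.6) and 14.5 ± 28.1 FPKM in NS cells (median 0.466). The iron-sulfur subunit Sdhb had 111 ± 205 FPKM in LS (median 81.2, highest 1238) and 51.8 ± 87.1 FPKM in NS cells (median 21.8). Of the membrane anchors, Sdhc had 29.5 ± 29.8 FPKM in LS (0 to 125, median 20.02) and 0.133 ± 0.246 FPKM in NS cells, where 4 reads in 3 cells were found against 3851 in LS, a log2 ratio of means of 7.80. That ratio was 1.73 with LS_1 and NS_1 kept and 1.68 with all 63 cells. The other anchor, Sdhd, had 59.4 ± 78.6 FPKM in LS (median 34.1, a value in 31 of 35) and 100.3 ± 234 FPKM in NS cells, all of it from 2 cells. Its log2 ratio of -0.76 turned to 0.17 without NS_15.

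All 8 nuclear genes of complex III had an LS mean at or above 30.4 FPKM. Uqcr10 and Uqcr11, small accessory subunits, had 187 ± 135 and 154 ± 88.7 FPKM in LS and 141 ± 228 and 148 ± 177 FPKM in NS cells, differences well inside the spread between cells. The hinge protein Uqcrh had 127 ± 89.998 FPKM in LS (5.34 to 410.5, a value in 35 of 35) and 52.4 ± 102 FPKM in NS cells (found in 5 of 12). The Rieske iron-sulfur protein Uqcrfs1 had 120.1 ± 137 FPKM in LS against 74.5 ± 158 in NS cells, of which NS_14 held 57.9%. Uqcrq was near parity, with 56.5 ± 59.4 and 59.5 ± 102 FPKM.

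Complex IV held the most abundant nuclear members. Cox8a, the ubiquitous form of the smallest subunit, had 617 ± 368 FPKM in LS (288 to 1811, median 491) and 392 ± 462 FPKM in NS cells (0 to 1397, median 166). Cox4i1, the main form of the largest nuclear subunit, had 486 ± 249.8 FPKM in LS (188 to 1518, median 401) and 209 ± 268 FPKM in NS cells (0 to 775, median 45.1). Both had a value in all 35 LS and in 11 of 12 NS cells, the most of any nuclear member in NS cells. Cox6a1 had 448 ± 282 FPKM in LS (median 372) and 389 ± 405 FPKM in NS cells (median 254). Cox6b1, on the side that binds cytochrome c, had 324 ± 289 FPKM in LS (median 241) and 183 ± 317 FPKM in NS cells (median 27.1). The neighbours Cox8a, Cox4i1, Cox6a1 and Cox6b1 differed in LS level by less than their spread between cells.

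Several complex IV subunits exist as a common form and as forms known from muscle, lung or testis. The common form made up nearly all of a pair in LS cells, 98.8% of the Cox4 sum for Cox4i1, 96.4% of the Cox6b sum for Cox6b1, and 99.3% of the Cox7b sum for Cox7b. The hypoxia-linked Cox4i2 had a value in 5 LS cells and in NS_8 (227 FPKM). The muscle form Cox6a2 was at 0 in all 35 LS cells, which sets no limit on cells that express it. It was found in NS_12 alone at 497 FPKM, beside 1315 FPKM of Cox6a1. Cox7a1, another muscle form, had a value in 3 LS and 2 NS cells, highest in NS_12 at 126 FPKM, while Cox7a2 had 176 ± 139 FPKM in LS against 153 ± 211 in NS cells. That library is the one with mostly even reads, and its Gad1 and Gad2 values summed to 446 FPKM. Cox7a2l had 129 ± 116 FPKM in LS against 46.2 ± 91.4 in NS cells, a log2 ratio of 1.48, or 2.41 without NS_9 and 0.37 with all 63 cells. Cox6b2 had a value in 10 LS and 1 NS cells, Cox7b2 in 3 LS cells, Cox8c in 1 LS cell, and Cox8b in none of the 47. Ndufa4l2, the hypoxia-inducible relative of Ndufa4, had a value in 3 LS cells, at most 3.18 FPKM.

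In complex V the catalytic head subunits had the highest LS means, while the highest NS mean was that of Atp5d. Atp5a1 (alpha) had 277 ± 133 FPKM in LS (53.7 to 641, median 277) and 106 ± 187 FPKM in NS cells (0 to 599, median 2.52). Atp5b (beta) had 274 ± 93.6 FPKM in LS (73.1 to 483, median 295) and 141 ± 222 FPKM in NS cells (0 to 657, median 10.49). Every LS cell held reads of both, and their LS means differed by less than the spread between cells. Atp5l, a membrane subunit that shares 69.0% of its windows with pseudogenes and other genes, had 192 ± 114 FPKM in LS against 85.4 ± 108 in NS cells, and Atp5d, of the central stalk, had 161 ± 97.2 and 144 ± 209 FPKM. The smallest LS to NS ratios of complex V were those of Atp5g2 (log2 -0.50, 43.3 ± 49.7 and 61.2 ± 108 FPKM) and Atp5e (log2 -0.12, 51.7 ± 36.3 and 56.1 ± 73.1 FPKM), both within the spread, and without NS_12 that of Atp5g2 was 0.42. Atp5sl, which despite its symbol acts in complex I assembly, had 22.01 ± 29.8 FPKM in LS cells (a value in 25 of 35) while NS cells had 1.08 ± 2.55 FPKM (2 of 12), which gave a log2 ratio of 4.35, or 5.43 without NS_2 and 2.42 with all 63 cells. The proton-carrying c subunit comes from 3 genes that encode the same mature protein, and in LS cells Atp5g3 gave 49.95%, Atp5g2 29.02% and Atp5g1 21.03% of their sum, against 39.6%, 50.2% and 10.2% in NS cells.

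Nuclear OXPHOS genes were found in fewer NS than LS cells also at an equal number of reads. Each cell was thinned to 140000 reads on listed genes, drawn with a fixed seed, which equalises reads and not mRNA molecules, and 81 of the 84 nuclear genes have recovered reads. LS cells then held 69.4 ± 7.64 of the nuclear members (41 to 78, median 72) and NS cells 34.1 ± 15.3 (12 to 59, median 33.5). All LS cells lay above the NS median, and 8 of 12 NS cells lay below every LS cell. Without NS_12 the NS mean was 31.8 ± 13.8, and with at least 3 neuron markers the means were 70.6 (32 LS cells) and 43.7 (3 NS cells). Unthinned, the means were 71.8 and 37.3 members. The share of cells with a read was higher in LS for 79 of 84 genes and in NS for 1, Cox7a1. Among genes with reads in 25% or more of these cells it was higher in LS for 75 of 75 members and for 91.0% of all 8663, so nearly all genes leaned the same way. Over complexes it averaged 86.2% in LS and 36.5% in NS cells for complex I, 86.4% and 31.3% for complex II, 93.9% and 43.8% for complex III, 61.3% and 37.5% for complex IV, and 91.1% and 53.4% for complex V. For the mitochondrial genes the averages were 71.0% and 70.5%, but 6 of the 13 were at 100% in both groups, where no gap could be seen.

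The same gap ran through the transcriptome, since thinned LS cells held 5863 ± 1625 genes and NS cells 3540 ± 1670. For genes that had reads in 25% or more of the thinned cells, the share was at least 50 points higher in LS for 31 of 75 nuclear members, against 15.3% of all 8663 genes. The share was at least 50 points higher in NS for 0 of 75, against 0.0923% of all genes. This filter pools 35 LS and 12 NS cells, so a gene found mainly in NS cells can hardly pass it. The NS counts, and the lean of all such genes to LS, were thus partly set by the filter. The median difference in favour of LS cells was 47.1 points over these members and 29.05 points over all such genes. As a share of all genes found in a thinned cell, nuclear members took 1.28% in LS and 1.09% in NS cells on average. The 3 members without recovered reads, Cox6a2, Cox8b and Cox8c, enter with 0.

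**Figure D4:**
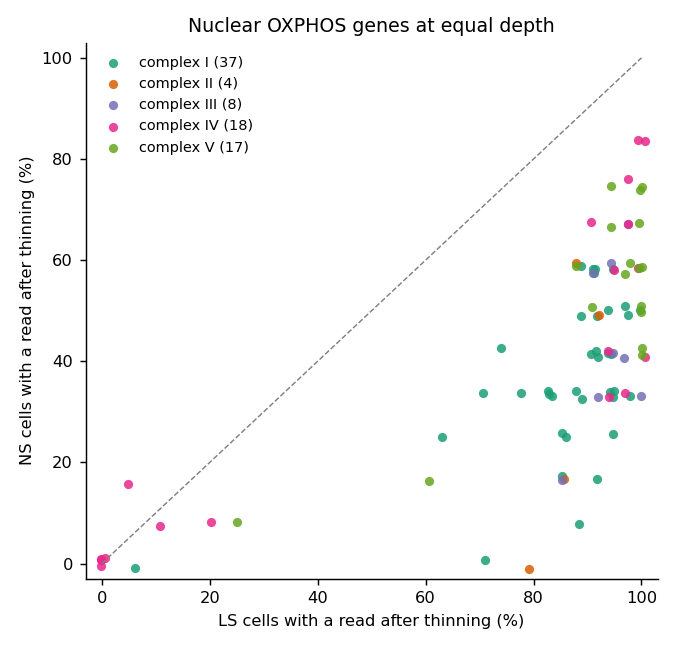
Percent of LS cells (x axis, n = 35) and of NS cells (y axis, n = 12) with at least 1 read after thinning to 140000 reads, a point per nuclear gene, coloured by complex and shifted slightly so that points do not hide each other; the dashed line marks equal shares. Points of 79 genes lie below the line, 4 genes had equal shares, and Cox7a1 lies above it. Among genes with reads in 25% or more of the cells, 75 of 75 members and 91.0% of all 8663 were higher in LS.

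In levels, 30 of the 79 nuclear members whose group means averaged at least 5 FPKM had an LS mean at least 2-fold the NS mean, against 29.1% of all 9599 genes under that filter. Only 3 members (Cox4i2, Cox6a2 and Cox7a1) had an NS mean at least 2-fold the LS mean, against 39.2% of all genes. The median log2 ratio was 0.69 over the members and -0.30 over all genes. This filter averages the 2 group means, so a gene high in a single NS cell can pass it. Of 1031 sensory receptor genes, 169 passed, 165 of them at least 2-fold higher in NS and 3 in LS. Both the 39.2% and the -0.30 include such genes, so the contrast with the members was partly set by the filter. By complex, the members at least 2-fold higher in LS were 15 of 35 in complex I, 3 of 4 in complex II, 3 of 8 in complex III, 4 of 15 in complex IV and 5 of 17 in complex V. Of all 84, 71 had the higher mean in LS and 12 in NS cells. NS means rested on few libraries, since 42 of the 84 genes had an NS median of 0 and 1 cell held at least 50% of the NS sum for 36 of them. These counts over the 84 were not made over all genes, so they do not set the members apart. With means of log2(FPKM + 1) in place of the ratio of means, 74 of the 79 members passed 2-fold in LS, against 40.9% of all 9599 genes.

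Over cells, the nuclear and the mitochondrial sum were almost unrelated in LS cells and moved together in NS cells. On the log2(FPKM + 1) scale Pearson's r was 0.12 and Spearman's rho 0.06 over the 35 LS cells, and r was 0.08 without LS_43 and LS_13, the 2 cells farthest from the median mitochondrial sum. Over the 12 NS cells r was 0.77 and rho 0.72, with r at 0.70 without NS_14 and NS_6 and 0.79 without NS_12. The difference between the groups was not tested. Both sums share the cell's library and total. In NS cells both also moved with depth, with r of 0.66 (mitochondrial) and 0.68 (nuclear) against the log2 of the reads, whereas in LS cells these were -0.35 and -0.05. With the median of the members' log2(FPKM + 1) in place of the sums, r was -0.32 in LS and 0.45 in NS cells. In the 30 LS cells with more excitatory than inhibitory markers r was 0.22.

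**Figure D5:**
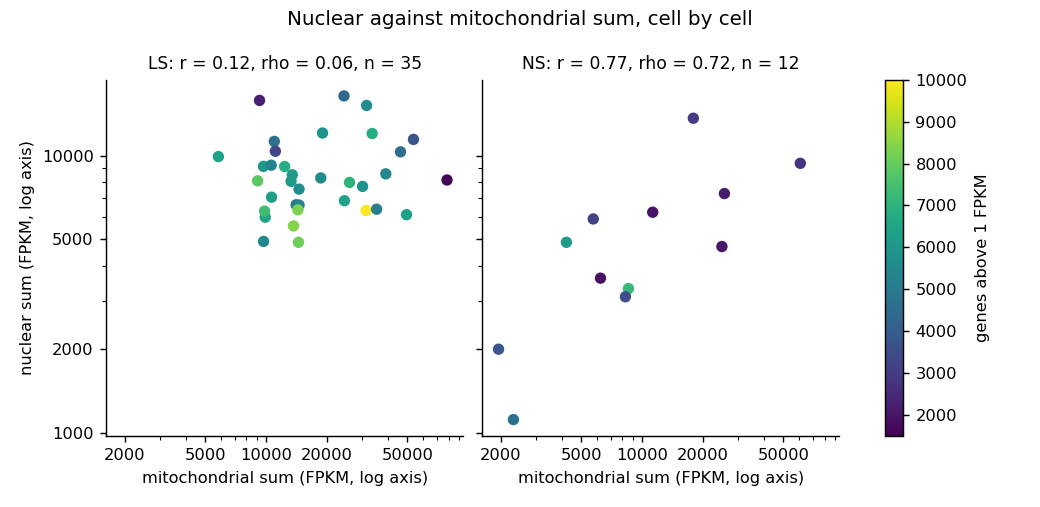
Nuclear against mitochondrial summed FPKM per cell on log axes, LS cells left and NS cells right, coloured by the number of genes above 1 FPKM. LS cells show no slope (r = 0.12, n = 35), and NS cells rise together (r = 0.77, n = 12).

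Within each genome the complexes of LS cells went together more closely than the sums of the 2 genomes did. In LS cells the nuclear sums of complexes I, III, IV and V had r between 0.72 (I with III) and 0.81 (I with IV), while complex II had r between 0.31 and 0.38 with each of them. The mitochondrial subunits of complexes I, III and IV had r of 0.85 to 0.93 with each other. In NS cells r between nuclear complexes ran from 0.07 (III with V) to 0.83 (I with IV), on both sides of the 0.77 between the genomes. Against the number of genes above 1 FPKM, r was -0.52 for the nuclear and -0.22 for the mitochondrial sum of LS cells. Single genes were far less alike. Pairs were taken among genes found in at least 50% of LS cells with an LS mean of at least 5 FPKM. The median r over pairs of the 74 such nuclear members was 0.13, against 0.07 over pairs of all 5267 such genes. The 7 abundant mitochondrial genes had a median of 0.84. Between a nuclear member and one of those 7 the median was -0.07 in LS and 0.28 in NS cells.

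The promoters of the nuclear members were searched for the letters of 3 known sites. Of the 84 genes, 66 matched an entry of RefSeq promoters (GRCm38.p6, from 250 bases before to 50 after a start site) by symbol. The letters GCATGCG, part of the site of the nuclear respiratory factor NRF-1, stood on either strand in 11 of the 66 (16.7%), against 5.34% of 14813 other listed genes. CCGGAAG, part of the site of ETS factors such as GABP, stood in 16 (24.2%), against 13.9%, and AAGATGG, part of the YY1 site, in 10 (15.2%), against 7.38%. Most members thus lacked each of them, and the differences in share were not tested. A match is a run of letters and not a bound site. The median LS mean was 111 FPKM for the 11 members with the NRF-1 letters and 74.7 FPKM for the other 55, and their median log2 ratios of LS to NS were 0.20 and 0.73. As examples, the 60-base stretches around the first match before the start site are given for the 2 most abundant members that have it, with the matched letters in capitals.
Cox6a1 (chr5:115349086-115349145, minus strand, 187 to 128 bases before the start): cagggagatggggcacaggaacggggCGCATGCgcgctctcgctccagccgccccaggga
Atp5l (chr9:44920933-44920992, minus strand, 250 to 191 bases before the start): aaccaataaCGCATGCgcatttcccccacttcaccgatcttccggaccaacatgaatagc

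Genes next to these in the pathway were counted by the same level rule, under which 29.1% of all genes were at least 2-fold higher in LS and 39.2% in NS. The 4 OXPHOS genes that the symbols leave out (Cyc1, Cycs, Ndufab1 and Atpif1) all passed the filter, and 2 had an LS mean at least 2-fold the NS mean and 0 the reverse. Cytochrome c1 (Cyc1) had 133 ± 199 FPKM in LS against 98.4 ± 183 in NS cells. Of 30 assembly factors that passed, 7 were at least 2-fold higher in LS and 8 in NS. For 65 mitochondrial ribosomal proteins these counts were 27 and 8, and for the 13 citrate cycle enzymes 9 and 1. Citrate synthase (Cs) had 55.7 ± 54.7 FPKM in LS against 14.8 ± 49.5 in NS cells. Of 15 listed genes for the expression of mitochondrial DNA only 1 passed the filter (higher in NS), and of 7 transcriptional regulators 2, Ppargc1b and Esrra, both with the higher mean in NS cells from values in 3 and 4 of them.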

How the data were processed

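Smart-seq2 libraries of 63 cells were used. Per the labels and the study's methods, the authors trimmed reads with AfterQC, aligned them to GRCm38 with STAR 2.5.3a, counted them with featureCounts and computed the deposited FPKM values with scater, keeping protein-coding genes. A total of 4 rows with a repeated name were left out, and 0 columns stayed unused.

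Whole reads were recovered from the FPKM steps with GENCODE M21 exon lengths (12209 genes) or lengths solved from the values (6341 genes), and 99.999% of values below 200 reads were whole within 0.01. Intervals cover counting error only, since no molecular identifiers were used. Kept cells excluded LS_1 and NS_1, taken as the study's low-cDNA cells from the names in a figure (their concentrations were not used here), 1 cell under 1000 genes, 0 cells over 25% mitochondrial share and 13 in which all markers of an astrocyte, an oligodendrocyte or a mixed excitatory and inhibitory set were above 0. Group values are means of FPKM. Named genes were all mt- and Sdh genes, the 4 highest nuclear LS means per other complex, the 4 largest and 4 smallest ratios (at least 5 FPKM on average, found in 50% or more of the group where they were higher) and isoform families; other members follow in counts or were chosen after their values were seen. Members, lists and alternatives were chosen with earlier results of these data known. Python 3.11.15, numpy, pandas and scipy were used (seed 11).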

Additional observations from a re-analysis of the deposited data

How the results depend on the processing

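Of 244 values recomputed under other cells, scales, units, filters and folds, 208 moved by less than the spread between cells (sums, ratios and thinned members), 1.5-fold (counts) or 0.2 (correlations), and 36 moved by more. Differences under 2-fold did change sign: the mitochondrial sum (-0.33) and each mitochondrial complex, and the nuclear to mitochondrial ratio (0.47), at a receptor-gene level under 10%, mitochondrial complexes IV (-0.04) and V (-0.52) with LS_1 and NS_1 kept, and nuclear complex II (-0.02) with all 63 cells. Under that receptor-gene level only 3 NS cells were left, and NS_14, highest in mitochondrial sum, was 1 of them. Among 594 values of named genes 3 differences of at least 2-fold turned to the other sign: mt-Nd4l with at least 3000 genes (1.51), Cox7a2l with more excitatory than inhibitory markers (-0.54) and Cox4i2 on means of log2(FPKM + 0.1) (0.16). The nuclear sum was higher in LS cells under every setting run. The causes were not tested.

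In the 33 LS and 6 NS cells with at least 3000 genes, log2 ratios were 2.003 (mitochondrial sum), 1.33 (nuclear sum), 3.48 and 1.57 (nuclear complexes II and IV), and 1.98, 2.04 and 2.02 (mitochondrial complexes I, III and IV), 55 members were 2-fold higher in LS and the members' median ratio was 1.604. Those 6 NS cells were NS_2, NS_6, NS_7, NS_8, NS_9 and NS_16. All but NS_16 had receptor-gene levels from 31.5% (NS_2) to 111.6% (NS_8). NS_14, highest in mitochondrial sum, was left out by that limit. With more excitatory than inhibitory markers (30 LS, 2 NS) the mitochondrial sum gave 1.65, nuclear complex IV 1.62, mitochondrial complex IV 1.75 and the median member 1.56. The 2 NS cells were NS_8 and NS_9, with receptor-gene levels of 111.6% and 48.6%. They had 1 and 2 of the 5 neuron markers, and the excitatory markers of NS_9 summed to 3.27 FPKM. With all 63 cells 16 members were 2-fold higher in LS and 5 in NS. A receptor-gene level under 10% gave 5 in NS, CPM 1, pooled reads 6 and a filter at 20 FPKM 1. A 4-fold limit gave 12 in LS. Counts under these settings and those below were made over the members only, except for means of log2(FPKM + 1). Such counts have no share of all genes beside them and do not set the members apart from other genes.

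Medians over cells, which were 0 in NS cells for 42 of the 84 nuclear genes, gave 2.82 for nuclear complex II, 71 members higher in LS, 0 in NS and a median member of 6.39. Means of log2(FPKM + 1) gave 2.80, 74, 0 and 2.83, and means of log2(FPKM + 0.1) gave 3.69, 76 and 4.31. The correlation was 0.57 in NS cells on linear FPKM, and -0.32 in LS and 0.45 in NS cells with the members' medians. With at least 3 of 5 neuron markers, nuclear complex IV gave -0.14 and 7 members were higher in NS. NS_12 was among the 3 NS cells of that setting, which was added after the data were seen. Leaving out each cell in turn moved none of these values by more than the limits above, which are wide for the loss of 1 cell and so say little about stability. The nuclear sum then ran between 0.58 and 0.90 and the mitochondrial sum between 0.46 and 1.05. Members 2-fold higher in LS ran between 28 and 37, and the correlations between 0.07 and 0.20 (LS) and 0.72 and 0.81 (NS). The correlation over NS cells was not run where under 6 NS cells were left. No paired analysis was possible because the numbers in the cell names pair no LS with an NS cell and no test between groups was made.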

Other observations

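Within the LS group, cells with more excitatory than inhibitory markers and the reverse held similar OXPHOS levels. The 30 excitatory-marked cells had a mitochondrial sum of 20028 ± 13027 FPKM and a nuclear sum of 8549 ± 2856 FPKM, and the 4 inhibitory-marked cells had 23237 ± 12592 and 10174 ± 3762 FPKM. The ranges overlapped for both sums. Their median nuclear to mitochondrial ratios were 0.512 and 0.377, and the highest of the 4, LS_39, reached 1.70.

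LS_43 held the highest mitochondrial sum (78576 FPKM), the lowest nuclear to mitochondrial ratio (0.104) and the fewest genes above 1 FPKM of the LS cells (1640). After thinning it also held the fewest nuclear members of the LS cells (41). NS_14 stood likewise among NS cells, with the highest mitochondrial sum and the lowest ratio (0.155), but with 48 nuclear members after thinning it lay above the NS median.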
